A study of Saccharomyces cerevisiae with 9 samples.

Results

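The 54 genes described here encode proteins of the mitochondrial ribosome of *Saccharomyces cerevisiae*. They were taken by name from a read-count table of 6357 features: every row whose RefSeq standard name is MRPL, MRPS or RSM followed by digits. All 54 genes with such a name in the RefSeq gene table had a row, and all 54 passed the filter on low counts. The 34 MRPL genes encode large-subunit proteins, and the 20 MRPS and RSM genes are named for the small subunit. The names matched the annotation: the uniform mitoribosomal protein name was listed as a RefSeq synonym for 53 of the 54, the exception being *RSM22*, a methyltransferase-like protein required for mitochondrial translation that is not a core ribosomal protein.

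RNA came from CAT-1, a strain of Brazilian fuel-ethanol plants, in sugar cane molasses. Each culture went through 5 fed-batch fermentations, with acid treatment of the cells between them, and was sampled at hour 4 of the last. There were 3 groups of 3 libraries: control cultures (control1, control12 and control13), and cultures treated with an anti-foam agent labelled Ind_B (Ind_B1 to Ind_B3) or Ind_Z (Ind_Z1 to Ind_Z3). Strain, medium, cell recycling and acid treatment were common to all 3 groups, and the labels give neither the composition nor the dose of the agents, nor say whether libraries of a group came from separate fermentations. P-values therefore measure the spread between these libraries, which may be technical.

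Mitochondrial ribosomes translate the few proteins encoded by the mitochondrial genome, in yeast mainly core subunits of the respiratory chain and the ATP synthase. All of their proteins except Var1 are encoded in the nucleus, made in the cytosol and imported. Their genes form a set separate from that of the cytosolic ribosome. In yeast their mRNAs are known targets of the RNA-binding protein Puf3.

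Total counts per library ranged from 5900571 to 18245935. The 54 genes together had 9689 to 42705 counts per library, 0.164% to 0.238% of the total, and the median gene had 169 to 781. Levels are given as CPM, the usual depth-scaled count unit, with library sizes scaled by TMM, a normalization that trims extreme genes. One control library, control13, stood apart: its TMM factor was 0.757 against 0.927 to 1.19 in the other 8. Its Spearman correlations over the 54 genes with control1 and control12 were 0.865 and 0.883, while those controls correlated at 0.981. It was the control farthest from the other pair for 35 of the 54 genes. The summary counts against control are given with and without it, as are the changes of single genes that it moved most.

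Per length, most mitochondrial ribosomal protein genes lay within 2-fold of their own median level. Per kilobase of coding length, the median gene was at 53.6 CPM per kb over the 9 libraries, with an interquartile range of 43.3 to 66.2, and 52 of the 54 lay within 2-fold of that median. The median over the 5668 tested genes with a coding length was 47 CPM per kb. Over 136 cytosolic ribosomal protein genes it was 557 CPM per kb. That set was taken by name alone (RPL, RPS or RPP plus digits, with or without A or B), which can take in a gene of another function. The 34 large-subunit genes had a median of 53.2 CPM per kb and the 19 small-subunit genes, *RSM22* left out, one of 53.9. Genes for proteins with a bacterial homologue (33 genes, median 54.9 CPM per kb) and genes for proteins found only in mitochondrial ribosomes (20 genes, median 50.6) also lay close together.

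**Figure D1:**
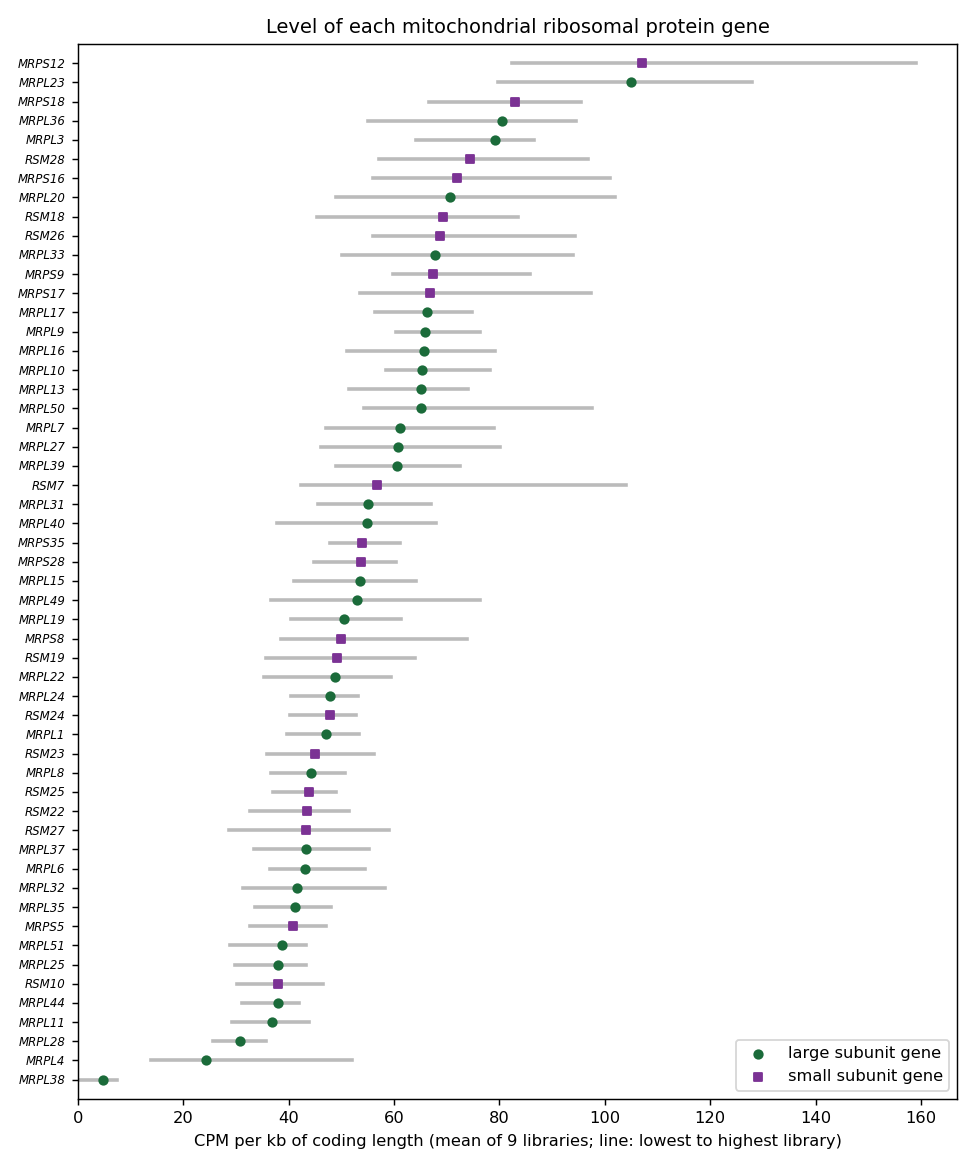
Level of each of the 54 genes on the x axis, in CPM per kb of coding length; points are means of the 9 libraries, lines run from the lowest to the highest library, and *RSM22* is drawn with the small subunit. Apart from *MRPL38* at 4.73 and *MRPL4* at 24.3, the means lie between 30.7 and 107 CPM per kb, and most lines overlap those of their neighbours.

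The highest level per length was that of *MRPS12*, encoding uS12m, the counterpart of the bacterial protein at the decoding centre, at 107 ± 23.0 CPM per kb (SD, n = 9 libraries). *MRPL23*, encoding uL13m, was at 105 CPM per kb, *MRPS18* (uS11m) at 83 and *MRPL36* (bL31m) at 80.4. The first pair did not differ beyond their spread, since *MRPS12* ranged from 82.4 to 159 CPM per kb over the libraries and *MRPL23* from 79.8 to 128. The highest value of *MRPS12* was that of control13, at 73.7 CPM beside 38.1 to 53.9 CPM in all other libraries. The place of *MRPS12* above *MRPL23* rests on that library. *MRPS18*, at 66.6 to 95.4, overlapped both ranges.

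At the other end were *MRPL11* (uL10m, at the base of the ribosomal stalk) at 36.8 CPM per kb, *MRPL28* (mL40) at 30.7, *MRPL4* (uL29m) at 24.3 and *MRPL38* (uL14m) at 4.73. *MRPL38* was far below the others although it encodes a conserved protein at the subunit interface. Its TMM-scaled levels were 2.43, 2.42 and 0.201 CPM in control1, control12 and control13. They were 2, 2.68 and 1.46 CPM in Ind_B1, Ind_B2 and Ind_B3, and 1.87, 1.59 and 3.12 CPM in Ind_Z1, Ind_Z2 and Ind_Z3. The value in control13 rested on 1 read, and this was the only one of the 54 genes with 5 or fewer counts in any library.

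The count table also holds a row YKL169C, next to *MRPL38* (YKL170W) by systematic name and on the opposite strand, which RefSeq does not annotate. That row had 2 to 14 counts per library. Whether these features overlap, and whether reads were left uncounted there, was not tested. The strand setting of the counting is not given in the sources used here. Such an unannotated row, neighbouring by systematic name, was present for 8 of the 54 genes, among them *MRPL39* and *RSM7*. *MRPL19* and *MRPL51* overlap another RefSeq gene. Whether the counts of these genes were affected was not tested either.

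After TMM scaling, the summed level of the 54 genes was nearly the same in all controls and lower in every Ind_Z library. It was 2210, 2160 and 2170 CPM in control1, control12 and control13. It was 2200, 2240 and 1940 CPM in Ind_B1, Ind_B2 and Ind_B3, and 1980, 1710 and 1880 CPM in Ind_Z1, Ind_Z2 and Ind_Z3. The Ind_Z libraries lay below all controls, and Ind_Z1 lay above Ind_B3, so those 2 groups overlapped. The group means were 2180 ± 26.5 CPM in control, 2130 ± 163 in Ind_B and 1860 ± 137 in Ind_Z (SD, n = 3), so that the mean of Ind_Z differed from control by −14.8% and that of Ind_B by −2.38%. As an unscaled share of the total count the order was another for control13: the 54 genes took 0.234%, 0.233% and 0.164% in control1, control12 and control13, 0.238%, 0.238% and 0.23% in Ind_B1, Ind_B2 and Ind_B3, and 0.189%, 0.164% and 0.174% in Ind_Z1, Ind_Z2 and Ind_Z3. By share control13 lay with the Ind_Z libraries, so that Ind_Z overlapped control and no longer overlapped Ind_B.

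Large and small subunit genes kept their proportion. The ratio of the summed large-subunit to the summed small-subunit level, *RSM22* left out, was 1.46 ± 0.0361 in control, 1.5 ± 0.0513 in Ind_B and 1.47 ± 0.0529 in Ind_Z (SD, n = 3), and over the 9 libraries it ran from 1.41 to 1.54. In bulk RNA, fewer transcripts per cell and fewer cells carrying them cannot be told apart.

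**Figure D2:**
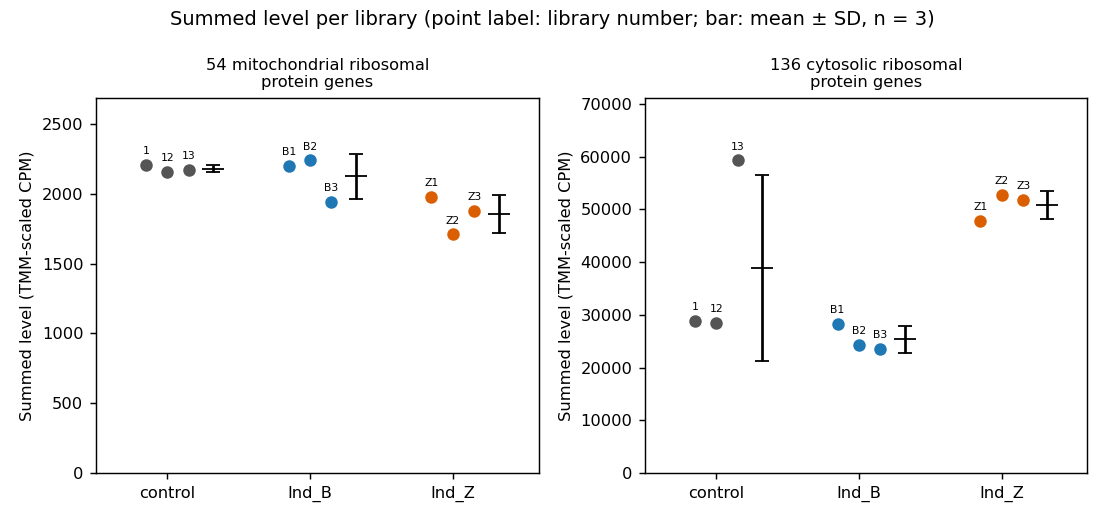
Summed TMM-scaled CPM per library (y axis, from 0) of the 54 mitochondrial (left) and 136 cytosolic (right) ribosomal protein genes, with the group mean ± SD (n = 3). The mitochondrial sums lie between 1710 and 2240 CPM in all 9 libraries, while the cytosolic sums run from 23500 to 59300 CPM. The control13 point lies with the other controls on the left and far above them on the right.

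The cytosolic ribosomal protein genes, measured in the same libraries, had another pattern. Their summed level was 28900, 28500 and 59300 CPM in control1, control12 and control13, 23500 to 28300 in Ind_B and 47900 to 52800 in Ind_Z. For each count on a mitochondrial ribosomal protein gene there were 13.1, 13.1 and 27.4 on cytosolic ones in control1, control12 and control13. The ratio was 12.9, 10.9 and 12.1 in Ind_B1, Ind_B2 and Ind_B3 and 24.2, 30.8 and 27.6 in Ind_Z1, Ind_Z2 and Ind_Z3. It does not depend on library scaling. By this ratio control13 lay among the Ind_Z libraries and the other controls just above all Ind_B libraries.

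Between Ind_B and control, which differ in the presence of that agent, the levels of these genes lay close together. Their median change was −0.03 on the log2 scale, beside 0.01 over all 6137 genes tested. Of the 54, 19 lay above 0 and 35 below, where 48.2% of all genes lay below, but the sign depended on the scaling: with upper-quartile factors the median was 0.02 (all genes 0.07) and with library totals 0.16 (all genes 0.21), and without Ind_B3 it was 0.03. Without control13 it was −0.04, with 38 of the 54 below 0. By edgeR's quasi-likelihood F-test, with p-values adjusted by Benjamini-Hochberg, 0 of the 54 were called, where 0.147% of all genes were (0.0326% higher and 0.114% lower), and the lowest adjusted p was 0.214. At an unadjusted p under 0.05 there were 3, all lower, where 19.1% of all genes were past that level, 9.92% lower and 9.14% higher. DESeq2 and limma-voom also called 0, where they called 4.92% and 3.49% of all genes, and edgeR without control13 called 0 beside 0.728%. The standard errors had a median of 0.15, and for 45 of the 54 genes the 95% interval of the change lay within 1.5-fold in either direction.

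The genes of lowest p were *MRPL4*, *MRPS9* and *RSM7*. *MRPL4*, encoding uL29m near the exit of the peptide tunnel, was at 24.6, 22.5 and 50 CPM in control1, control12 and control13. It was at 21.5, 13.3 and 19.9 CPM in Ind_B1, Ind_B2 and Ind_B3. All Ind_B libraries lay below all controls, and control13 was about 2-fold above the other controls. The change was −0.79 ± 0.3 (SE; adjusted p = 0.214 by edgeR), and −0.37 without control13.

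*RSM7*, encoding uS7m of the small-subunit head, was at 39.8, 37.6 and 77.7 CPM in control1, control12 and control13, and at 39.5, 31.5 and 32.5 CPM in Ind_B1, Ind_B2 and Ind_B3. Here too control13 was high, and Ind_B1 lay among the other controls. The change was −0.56 ± 0.25 (edgeR adjusted p = 0.257), and −0.17 without control13. *MRPL4*, *RSM7* and *MRPL38* had the largest gaps between 1 control and the mean of the other pair, 1.08, 1 and −2.57 on the log2 scale, in each case for control13.

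*MRPS9*, encoding uS9m, was at 64.8, 56.9 and 71.9 CPM in the controls in the same order and at 53.8, 56.3 and 51 CPM in Ind_B. The groups did not overlap, with the highest Ind_B library just under control12. The change was −0.26 ± 0.11 (edgeR adjusted p = 0.24), and −0.19 without control13. Besides *MRPL4* and *MRPS9*, only *MRPL44* (mL53) and *RSM23* had all Ind_B libraries below all controls, 4 of 54, while 9.21% of all genes did; 0 of 54 had all of them above, while 12% of all genes did. Without control13 these counts were 6 and 0 of 54, beside 12.4% and 15.6% of all genes. The largest changes upward were those of *MRPL51* (mL43) at 0.19 ± 0.16 and *MRPS17* (uS17m) at 0.18 ± 0.18. Without control13 that of *MRPL51* was 0.06 and that of *MRPS17* 0.12, and *MRPS17* was at −0.05 without Ind_B2.

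**Figure D3:**
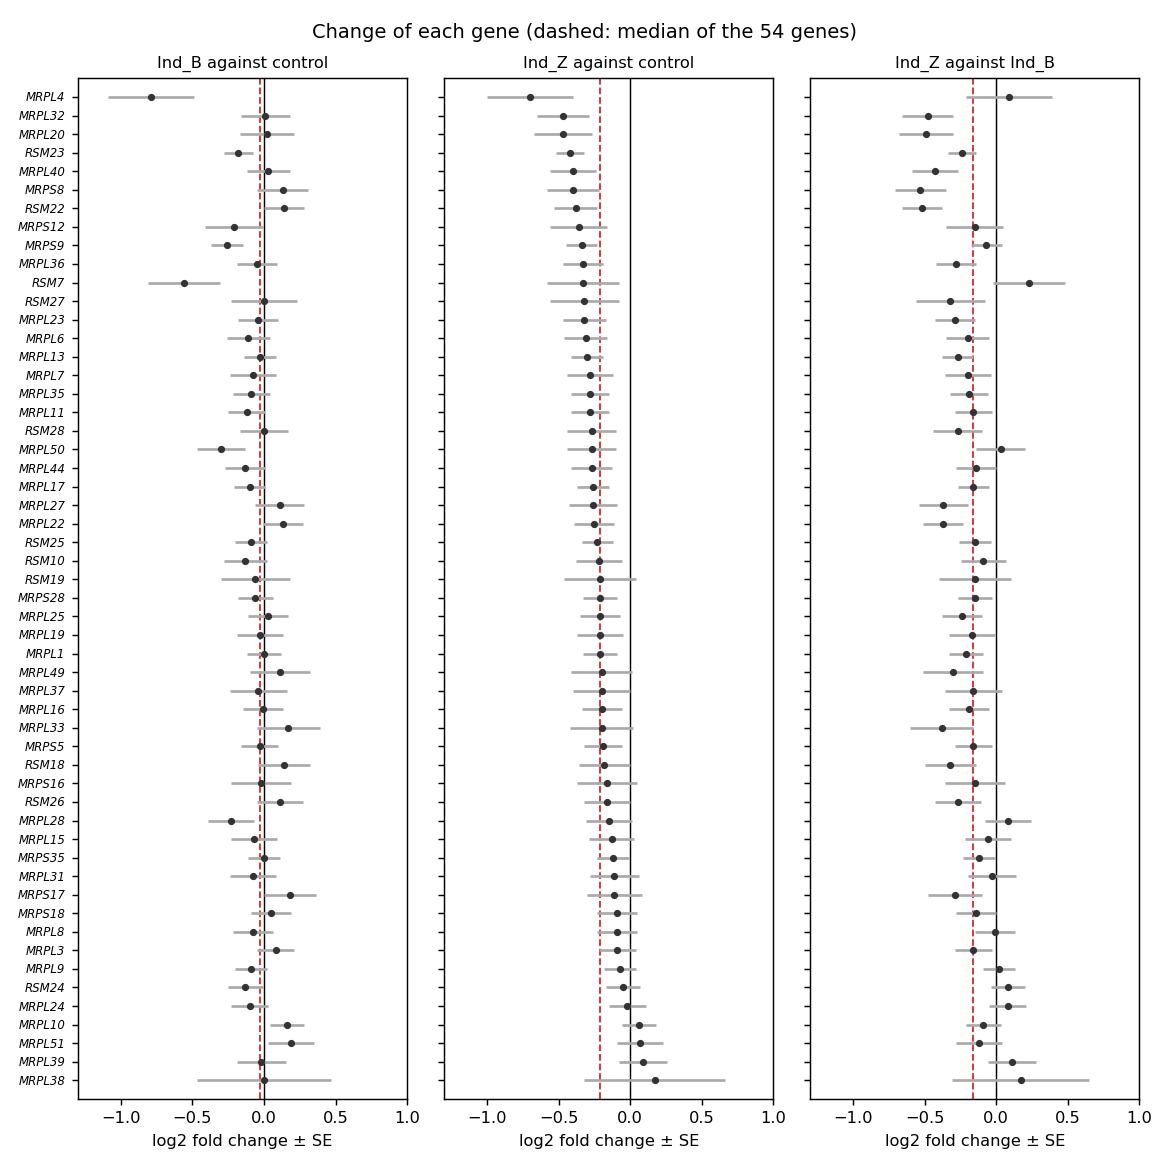
log2 fold change ± SE (x axis) of each of the 54 genes in the 3 comparisons, in the order of the change in Ind_Z against control; dashed lines mark the medians of −0.03, −0.21 and −0.16. In the middle panel 50 of the 54 points lie below 0, and edgeR called 0 genes in any panel.

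With the agent Ind_Z, nearly all of the genes had slightly lower levels than in control, by amounts that did not pass the test gene by gene. The median change was −0.21 (−0.03 over all genes tested), its quartiles were −0.3 and −0.13, and 50 of the 54 genes lay below 0, where 54.5% of all genes did. The edgeR test called 0 of the 54, where 2.13% of all genes were called (1.73% higher and 0.407% lower). The lowest edgeR adjusted p of the 54 was 0.073. For 29 of the 54 genes the 95% interval of the change lay within 1.5-fold in either direction. At an unadjusted p under 0.05, 10 were lower and 0 higher, while 8.95% of all genes were lower and 10.3% higher, 19.3% in all. In 19 genes, 12 of the large and 7 of the small subunit, every Ind_Z library lay below every control, which held for 12.6% of all genes; in 0 genes every Ind_Z library lay above, which held for 13.5%.

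Without control13 the median was again −0.21 and 50 genes lay below 0. In 34 of the 54 every Ind_Z library then lay below control1 and control12, beside 30.8% of all genes, and in 1 every Ind_Z library lay above, beside 30.5%. edgeR then called 4 of the 54 genes, all lower, *RSM22*, *RSM23*, *RSM28* (mS46) and *MRPL40*, while it called 19.6% of all genes. Of those 1213 of 6178 genes, 809 were higher and 404 lower. In *RSM22*, *RSM28* and *MRPL40* control13 was the lowest control, in *RSM23* the highest. DESeq2 on all libraries called *RSM23* alone, as lower, beside 7.28% of all genes (295 higher and 152 lower of 6137). With sample quality weights, which gave control13 a weight of 0.144, limma-voom called 13 of the 54, 24.1%, all lower. It called 34.7% of all genes, 1188 higher and 943 lower of 6137.

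The gene of lowest p was *RSM23*, which encodes mS29, the yeast counterpart of the human GTP-binding protein DAP3. It was at 66.7, 65.7 and 76.1 CPM in control1, control12 and control13 and at 53.1, 54.1 and 48.4 CPM in Ind_Z1, Ind_Z2 and Ind_Z3. The Ind_B libraries, at 64.2, 61.3 and 58.1 CPM, lay between them, and no library of one group overlapped another group. The change in Ind_Z was −0.42 ± 0.1 (edgeR adjusted p = 0.073), and −0.35 without control13 (edgeR adjusted p = 0.0286). Against Ind_B it was −0.24 ± 0.1 (edgeR adjusted p = 0.184).

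*MRPS9* was at 50.4, 52.5 and 50 CPM in Ind_Z1, Ind_Z2 and Ind_Z3, below all controls and overlapping Ind_B (change against control −0.34 ± 0.11, edgeR adjusted p = 0.143; −0.25 without control13). *MRPL32* encodes bL32m, whose processing by the m-AAA protease is a step of ribosome assembly. It was at 28.3, 24.7 and 22.3 CPM in control1, control12 and control13, at 23.8, 32.2 and 20.6 in Ind_B1, Ind_B2 and Ind_B3, and at 18.7, 17.3 and 18.5 in Ind_Z1, Ind_Z2 and Ind_Z3. All Ind_Z libraries lay below the 6 others, and Ind_B2 was the highest of all (change against control −0.47 ± 0.18, edgeR adjusted p = 0.192; −0.54 without control13).

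*MRPL4* had the largest fitted difference from control, −0.7 ± 0.3 (edgeR adjusted p = 0.243), at 22.4, 17.3 and 18.3 CPM in Ind_Z. Without control13 it was −0.27. The changes above 0 were those of *MRPL38* (0.17 ± 0.49), *MRPL39* (0.09 ± 0.17), *MRPL51* (0.07) and *MRPL10* (0.06). *MRPL39*, encoding bL33m, was at 12.5, 10.4 and 15.5 CPM in the controls and at 12.7, 13.1 and 14.5 in Ind_Z, and the groups overlapped. Without control13, *MRPL38* was at −0.12, *MRPL51* at −0.04, *MRPL39* at 0.22 and *MRPL10* at 0.04, and *MRPL39* was at −0.04 without control12.

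**Figure D4:**
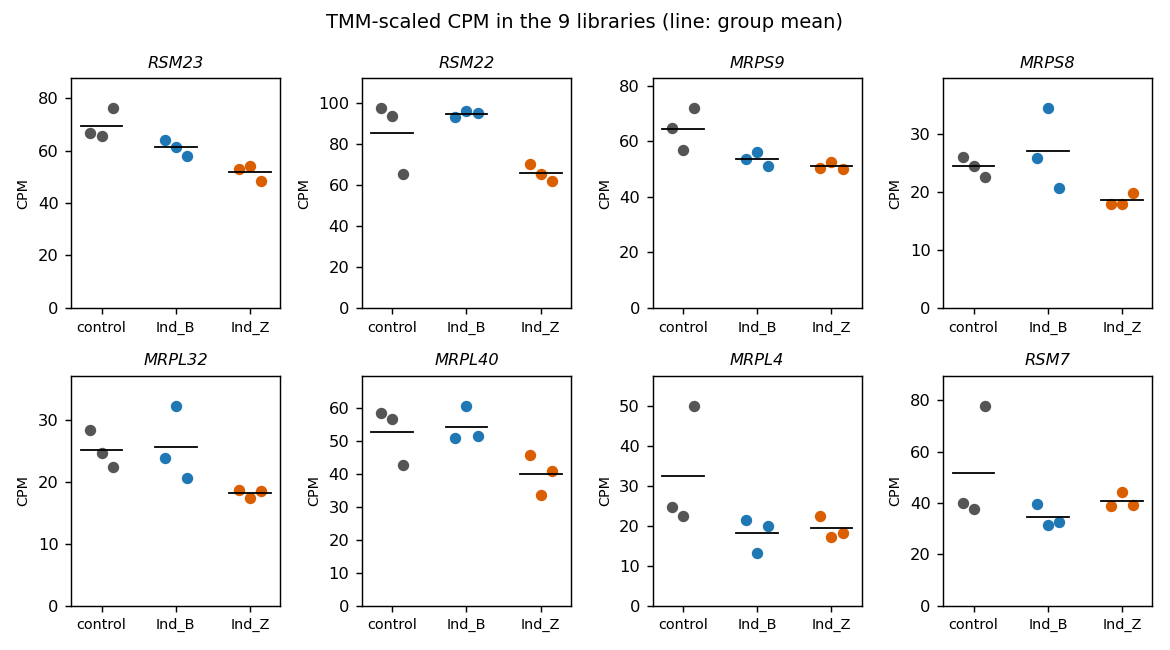
TMM-scaled CPM of 8 genes in the 9 libraries (y axes from 0; points are libraries in the order control1, control12 and control13, or replicates 1, 2 and 3; lines are group means). In *RSM23*, *MRPS8* and *MRPL32* all Ind_Z points lie below the points of both other groups; in *MRPL4* and *RSM7* the control13 point, at 50 and 77.7 CPM, lies far above all other libraries.

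Most of the genes also had lower levels in Ind_Z than in Ind_B. The median change was −0.16 (−0.03 over all genes tested), with 45 of the 54 below 0, where 53.8% of all genes lay below 0. The edgeR test called 0 of the 54, where 0.424% of all genes were called (0.358% higher and 0.0652% lower). The lowest edgeR adjusted p of the 54 was 0.0881. For 31 of the 54 genes the 95% interval of the change lay within 1.5-fold in either direction. At an unadjusted p under 0.05, 8 were lower and 0 higher, where 12.5% of all genes were lower and 13% higher, 25.5% in all. In 10 genes every Ind_Z library lay below every Ind_B library, which held for 21.5% of all genes, and in 0 every one lay above, which held for 21.4%. DESeq2 called *RSM22* alone, 1.85% of the 54 beside 10.3% of all genes, and limma-voom called 3, *MRPS8*, *RSM22* and *RSM23*, 5.56% beside 24.5%. Without control13 in the fit, edgeR called *MRPL40* and *RSM22*, 3.7% beside 23.5%. All of these genes were lower in Ind_Z. Of all genes, these fits called in the same order 189, 611 and 575 lower and 442, 890 and 878 higher. This comparison shares its Ind_Z libraries with the one before.

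*RSM22* had the lowest p. It was at 92.9, 96 and 94.8 CPM in Ind_B1, Ind_B2 and Ind_B3 and at 70.3, 65.4 and 61.7 CPM in Ind_Z1, Ind_Z2 and Ind_Z3. The controls control1, control12 and control13 were at 97.2, 93.7 and 65.4 CPM, so that the first pair lay with Ind_B and control13 with Ind_Z. The change in Ind_Z against Ind_B was −0.52 ± 0.14 (edgeR adjusted p = 0.0881). In the fit without control13, in which the same 6 antifoam libraries were compared, it was −0.51 and called (edgeR adjusted p = 0.00221).

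*MRPS8*, encoding uS8m, was at 26, 34.5 and 20.8 CPM in Ind_B1, Ind_B2 and Ind_B3 and at 18, 18 and 19.9 CPM in Ind_Z1, Ind_Z2 and Ind_Z3. The groups did not overlap, although the Ind_B values were spread widely (change −0.53 ± 0.18, edgeR adjusted p = 0.119). *MRPL40* encodes uL24m, which in yeast contacts the insertase Oxa1 at the tunnel exit. It was at 51, 60.7 and 51.5 CPM in Ind_B and at 45.7, 33.8 and 40.9 CPM in Ind_Z, again without overlap (change −0.43 ± 0.16, edgeR adjusted p = 0.133). Against the median, *RSM7* was at 0.23 ± 0.25 (log2) and *MRPL38* at 0.17 ± 0.48. In the test of all 3 groups at once edgeR called 0 of the 54 genes, beside 2% of all genes; 8 had an unadjusted p under 0.05, as 26.7% of all genes had, and DESeq2 called *RSM22* and *RSM23*, 3.7% of the 54 beside 14.8% of all genes. In that test limma-voom called 10 of the 54 beside 37.4% of all genes, and edgeR without control13 called 4 beside 23.7%.

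The small differences were of like size in the parts of the ribosome. In Ind_Z against control the median was −0.21 for the 34 large-subunit genes, 30 of them below 0, and −0.21 for the 19 small-subunit genes, all 19 below 0. It was −0.21 for genes with a bacterial homologue and −0.22 for mitochondria-specific ones. In Ind_B against control the 4 medians were −0.04, −0.03, −0.03 and −0.03 in that order. No difference between these subsets was tested.

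In the Ind_Z group and in 2 of the Ind_B libraries, the deviations of the 54 genes from their group mean went with gene length. Across the 54 genes, the log2 deviation from the own group mean had a Spearman correlation with coding length of 0.56 in Ind_B3 and −0.36 in Ind_B2. It was 0.32, 0.31 and −0.59 in Ind_Z1, Ind_Z2 and Ind_Z3. Over 5668 genes the same libraries had 0.53, −0.25, 0.12, 0.25 and −0.4. In Ind_B1 the correlation was −0.14 over the 54 genes and −0.36 over all. In control1, control12 and control13 it was −0.13, 0.1 and 0.01 over the 54 genes. Over all 5668 genes it was 0.13, 0.13 and −0.15 in these controls, as far from 0 as in Ind_Z1. These correlations are across genes of 1 library and are not independent, since deviations within a group sum to 0. In Ind_B3 the 27 genes shorter than the median of 706.5 bases had a median deviation of −0.28 and the 27 longer ones one of −0.07, whereas in Ind_B2 these were 0.18 and 0. The short genes *MRPL32* and *MRPS8* were highest in Ind_B2 and lowest in Ind_B3 among the Ind_B libraries.

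**Figure D5:**
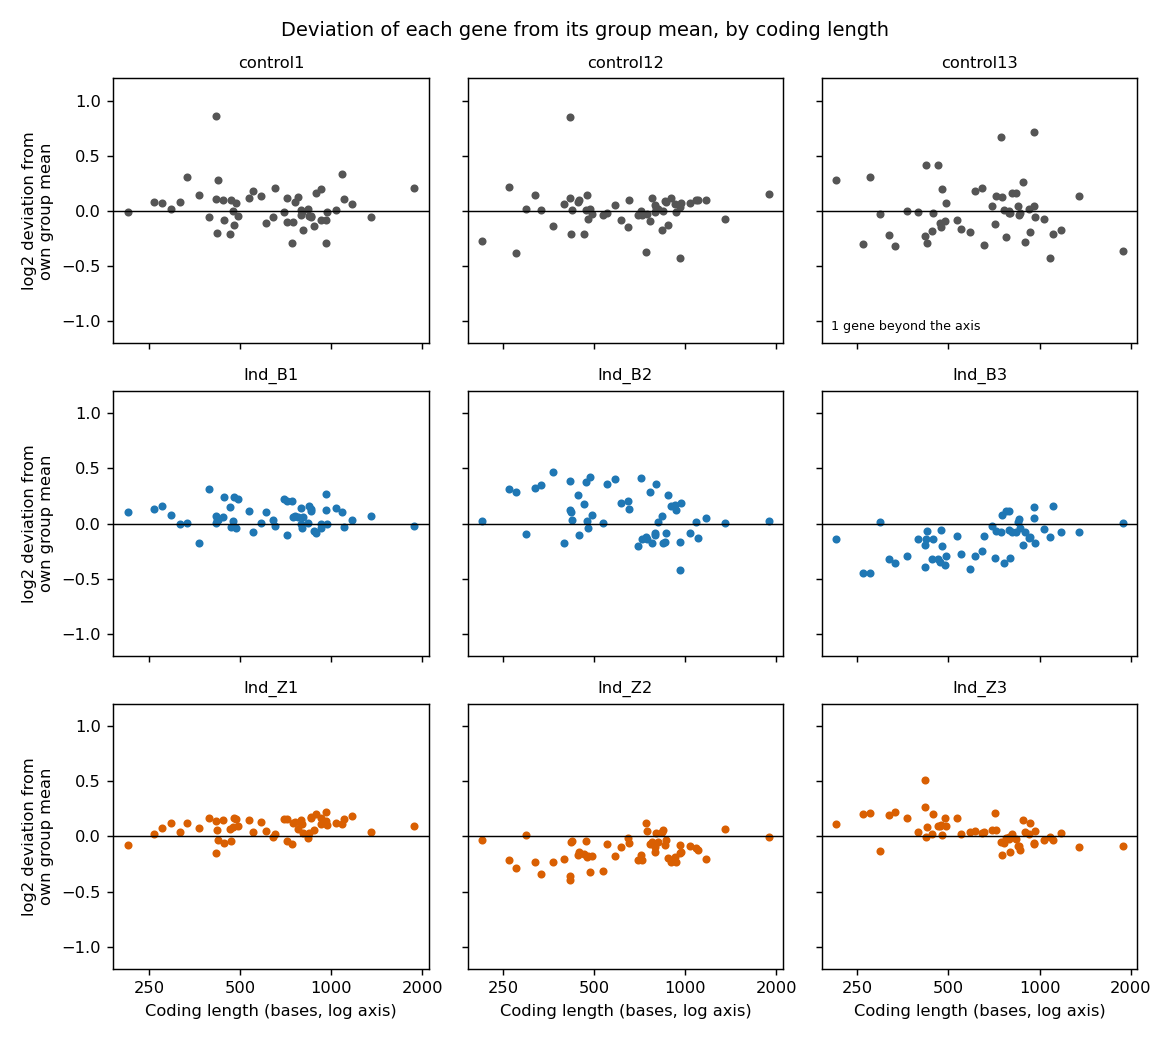
log2 deviation of each of the 54 genes from the mean of its own group (y axis) against coding length in bases (x axis, log scale), 1 panel per library; 1 gene, *MRPL38* in control13, lies beyond the axis. Short genes lie low in Ind_B3 and mostly high in Ind_B2, with median deviations of −0.28 and 0.18 for the shorter 27 genes.

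Across the 54 genes the Spearman correlation of the change with coding length was −0.07 for Ind_B against control, −0.14 for Ind_Z against control and −0.05 for Ind_Z against Ind_B. With an offset for coding length in the fit, the medians of the 54 genes were −0.04, −0.22 and −0.17, and 0 genes of the set were called in each comparison, with lowest edgeR adjusted p of 0.184, 0.0546 and 0.0691.

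Of 98 genes in the further lists on mitochondrial translation and its regulators, edgeR called 0 in each comparison. DESeq2 called 0 in Ind_B against control, 5 in Ind_Z against control (*DIA4*, *MEF1*, *MRP51*, *MST1* and *MSW1*) and 5 in Ind_Z against Ind_B (*CRF1*, *MEF1*, *MRP51*, *MST1* and *MSY1*), all lower in Ind_Z. In the same order limma-voom called 0, 31 and 22. Of its 31 calls 29 were lower in Ind_Z and 2 higher, and of its 22 calls 21 were lower and 1 higher. The edgeR fit without control13 called 0, 19 and 20, the latter 19 and 20 all lower in Ind_Z. The shares of all genes called by these fits are those given above, with the numbers higher and lower for the comparisons of Ind_Z. Of 26 further mitochondrial ribosomal protein genes with other names, such as *MRP51* and *NAM9*, 24 lay below 0 in Ind_Z against control (median −0.19), 17 in Ind_B against control (median −0.06) and 21 in Ind_Z against Ind_B (median −0.14). *MRP51*, encoding bS1m, which acts in translation initiation, was at 99.7, 95.6 and 89.9 CPM in the controls. It was at 90.4, 90.5 and 90.6 in Ind_B1, Ind_B2 and Ind_B3 and at 76.8, 72.5 and 73.3 in Ind_Z1, Ind_Z2 and Ind_Z3. The Ind_Z libraries lay below the 6 others (change against control −0.36 ± 0.09, edgeR adjusted p = 0.0779; −0.39 and called without control13, edgeR adjusted p = 0.0126). *EHD3*, encoding mS47, had the lowest p of this list in Ind_B against control (−0.37 ± 0.15, and −0.28 without control13). In Ind_Z against control *EHD3* was at −0.39 ± 0.15.

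The 13 mitochondrial aminoacyl-tRNA synthetase genes had medians of 0.05, −0.21 and −0.26 in Ind_B against control, Ind_Z against control and Ind_Z against Ind_B. *MST1*, the threonyl-tRNA synthetase gene, was at 43.6, 46.1 and 42.5 CPM in the controls and at 33.4, 28.3 and 30.8 CPM in Ind_Z. The groups did not overlap (change −0.51 ± 0.12, edgeR adjusted p = 0.0571; called without control13, edgeR adjusted p = 0.0162). *MSY1*, for tyrosyl-tRNA, was at −0.54 ± 0.14 in Ind_Z against Ind_B, and *SLM5*, for asparaginyl-tRNA, at 0.61 ± 0.23 in Ind_B against control, with control13 the lowest control at 22.1 CPM (0.36 without it).

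The 12 translation factor genes had medians of 0.01, −0.2 and −0.15 in the same order. *MEF1*, the elongation factor G gene, was at 181, 175 and 162 CPM in the controls and at 136, 122 and 121 CPM in Ind_Z, without overlap (change −0.45 ± 0.12, edgeR adjusted p = 0.0747; called without control13, edgeR adjusted p = 0.0113). *AIM23*, the initiation factor 3 gene, was at −0.44 ± 0.14 in Ind_Z against Ind_B. *PTH4* went the other way with both agents, at 0.57 ± 0.22 in Ind_B against control and 0.76 ± 0.23 in Ind_Z against control. Its edgeR adjusted p was 0.224 and 0.113, and its level was low, at 3.93, 4.38 and 3.41 CPM in the controls.

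The 18 translational activator genes had medians of 0.07, −0.21 and −0.3. *PET111*, the activator of COX2 mRNA translation, was at −0.46 ± 0.15 in Ind_Z against control and −0.49 ± 0.15 against Ind_B, and *AEP3* at 0.55 ± 0.17 in Ind_B against control (0.4 without control13). The 12 genes of ribosome assembly and membrane insertion had medians of −0.08, −0.14 and −0.09. Their lowest p belonged to *MAM33* in Ind_B against control (−0.38 ± 0.14; −0.24 without control13), to *MBA1*, a ribosome receptor of the inner membrane, in Ind_Z against control (−0.33 ± 0.12) and to the GTPase gene *MTG2* in Ind_Z against Ind_B (−0.37 ± 0.12). The 6 genes of mitochondrial transcription and RNA turnover had medians of 0.07, −0.28 and −0.3, with the RNA polymerase gene *RPO41* at −0.36 ± 0.13 in Ind_Z against control, the exoribonuclease gene *DSS1* at −0.4 ± 0.15 in Ind_Z against Ind_B and *PET127* at 0.13 ± 0.13 in Ind_B against control (0.05 without control13).

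*VAR1*, the mitochondrially encoded ribosomal protein gene, was at 14.4, 8.99 and 9.03 CPM in control1, control12 and control13, at 8.2, 9.13 and 4.7 in Ind_B1, Ind_B2 and Ind_B3, and at 8.67, 16.1 and 13.3 in Ind_Z1, Ind_Z2 and Ind_Z3. The groups overlapped, and edgeR's changes of −0.61 ± 0.31, 0.18 ± 0.31 and 0.79 ± 0.31 in the 3 comparisons were not called. Without control13 the value against control was 0.07 in Ind_Z.

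Of 10 regulator genes edgeR on all libraries called 0, and DESeq2 called *CRF1* in Ind_Z against Ind_B. By limma-voom *FHL1* and *HAP4* were called in Ind_Z against control, 1 higher and 1 lower. In Ind_Z against Ind_B it called *CRF1*, *HAP3* and *HAP4*, 1 higher and 2 lower. Without control13, edgeR called *FHL1* in Ind_Z against control and *CRF1* and *FHL1* in Ind_Z against Ind_B, all lower. The shares of all genes called by these fits are given above. *CRF1*, a corepressor of cytosolic ribosomal protein genes, was at 52.2, 61 and 38.1 CPM in the controls, at 71.4, 84 and 69.4 in Ind_B and at 50.8, 45.8 and 49.9 in Ind_Z. The Ind_B libraries lay above all others (change 0.56 ± 0.16 against control, edgeR adjusted p = 0.139, and 0.39 without control13; Ind_Z against Ind_B −0.61 ± 0.16, adjusted p = 0.0767 by edgeR and 0.0172 by DESeq2). *HAP4*, the activator subunit of the Hap complex of respiratory genes, was at 226, 251 and 236 CPM in the controls and at 290, 403 and 317 in Ind_Z, without overlap (0.5 ± 0.21, edgeR adjusted p = 0.226, and again 0.5 without control13). In Ind_B1, Ind_B2 and Ind_B3 *HAP4* was at 182, 247 and 325 CPM, overlapping both other groups.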

How the data were processed

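Raw read counts of 9 libraries were deposited by the authors as 1 table, and each of its columns was used. TopHat2 2.0.9 and HTSeq 0.6.0 are named in the submitters' processing notes without their roles. Neither the labels nor the table's header name a genome build, an annotation or a strand setting. The columns control12 and control13 match no sample title and were assigned to the control group by name, without a replicate number. Rows were matched to RefSeq assembly R64 by locus tag (5783) or symbol (65), for names, neighbours and coding length; 509 of 6357 rows stayed unmatched. Sequences were not read, and a planned search of promoter motifs was not made, because the build of the table is unknown.

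The fits ran in R 4.3.3. Using edgeR 4.0.16, the 6137 genes passing filterByExpr were scaled by TMM and fitted with 1 mean per group over 9 libraries (6 residual degrees of freedom). Quasi-likelihood F-tests were adjusted by Benjamini-Hochberg over all genes and called under 0.05. Standard errors came from the weighted information matrix, and intervals of 95% from the t distribution. Deviations used log2(CPM + 0.25). The code was tested on simulated data. Alternatives used DESeq2 1.42.0, limma 3.58.1 (voom), RLE, upper-quartile or no factors, other filters, left-out rows and left-out libraries. Named genes were, per comparison, the 3 of lowest p, the 2 largest changes against the median and 1 per further list, plus the extremes of level and the largest gaps among controls. The other genes named were chosen after their values were seen. Genes and lists were chosen with earlier results of these data known.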

Additional observations from a re-analysis of the deposited data

How the results depend on the processing

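In Ind_B against control 0 of the 54 genes were called under every alternative run. In Ind_Z against control the count was 1 with DESeq2, 13 with limma-voom and 0 to 4 over the left-out libraries. In Ind_Z against Ind_B it was 1 with DESeq2, 3 with limma-voom, 1 with only the 6 libraries compared and 0 to 2 over the left-out libraries. For all 3 groups it was 2 with DESeq2, 10 with limma-voom and 0 to 4 over the left-out libraries. Every count above 0 over the left-out libraries came from the fit without control13. Same-numbered Ind_B and Ind_Z libraries did not deviate together (correlations −0.03, −0.25 and −0.45 over 6137 genes), so the numbers were not taken as pairs. Other-numbered libraries correlated from −0.06 to 0.34, with 0.34 for Ind_B2 with Ind_Z3 and 0.32 for Ind_B3 with Ind_Z2. The cause of these correlations was not tested. With a replicate block on the 6 antifoam libraries the count was 1 (*RSM22*, edgeR adjusted p = 0.0367). No paired analysis was possible for the controls because control12 and control13 carry no replicate number that matches a label.

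With library totals in place of TMM, added after seeing the data, the median of all genes was 0.21, −0.07 and −0.26 in Ind_B against control, Ind_Z against control and Ind_Z against Ind_B, and that of the 54 genes 0.16, −0.26 and −0.39. The coding-length offset and the non-overlap counts without control13 were also added after seeing the data. Over the left-out libraries the medians of the 54 genes ranged from −0.07 to 0.03, from −0.29 to −0.17 and from −0.23 to −0.1.

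The sign turned for *MRPL38* in Ind_Z against control with limma-voom (−0.11) and over the left-out libraries (−0.15 to 0.43; −0.12 without control13), and in Ind_Z against Ind_B with library totals (−0.06) and over the left-out libraries (−0.16 to 0.38; −0.05 without Ind_B3). It turned for *VAR1* in Ind_Z against control with limma-voom (−0.08) and reached 0 without Ind_Z2 (range 0 to 0.47), for *MRPL39* there without control12 (−0.04 to 0.22) and for *MRPS17* in Ind_B against control without Ind_B2 (−0.05 to 0.32). The cause was not tested.

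Counts of all genes called also varied with the processing. In Ind_Z against control the share called ran from 0.259% to 34.7% of all genes and from 0% to 24.1% of the 54. In Ind_B against control they were 9 with edgeR, 302 with DESeq2, 214 with limma-voom, 19 with upper-quartile factors, 39 with library totals, 3 with the length offset, 1 with 6 libraries and 0 to 332 over the left-out libraries. In Ind_Z against control they were 131, 447 and 2131 with the 3 tools, 81 with library totals, 59 with 6 libraries and 16 to 1213 over the left-out libraries. In Ind_Z against Ind_B they were 26, 631 and 1501, with 96 for library totals, 101 for the length offset, 14 for a mean count of at least 50, 13 without cytosolic ribosomal protein rows, 1251 with 6 libraries, 572 with the block and 0 to 1453 over the left-out libraries. For all 3 groups they were 123, 911 and 2294, with 190 for the length offset and 0 to 1467 over the left-out libraries. Standard errors of 0.1 to 0.49 (log2) limit what single genes can show.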
